A study of Mus musculus with 4 samples.

Results

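CD8 T cells of the naive gate from mice given IL-15C were set against virtual memory cells from mice given buffer, to ask how far cytokine-exposed cells without surface CD44 matched or differed from resting memory-type cells. The comparison took 2 of the 4 RNA-seq libraries of the series, 1 on each side, and the other 2 libraries (untreated naive and IL-15C virtual memory) served as reference points. Untreated mice, labelled wild type, were C57BL/6 mice given PBS, and treated C57BL/6 mice were given IL-15C, the cytokine IL-15 in complex with its receptor subunit IL-15Ra, both on a schedule of 4 times in a week. Duration, dose, age and sex were not given in the sources used here. From spleens, CD8 T cells were isolated on anti-CD8 microbeads, then sorted into naive cells (CD44-CD49d-) and virtual memory cells (CD44hiCD49d-). The titles state 3 mice per group, whether these were pooled is not stated, and each group had 1 library. Treatment and subset differ together between the 2 libraries, so their parts in any single difference cannot be told apart from these 2 libraries alone.

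Virtual memory CD8 T cells are memory-type cells found in mice that have not met the cognate antigen. They carry high CD44 and low CD49d, express the T-box factors Eomes and T-bet and the IL-2/IL-15 receptor beta chain CD122, and are known to depend on IL-15. IL-15 is presented in trans on IL-15Ra to cells that carry CD122 and the common gamma chain, signals through JAK kinases and STAT5, and supports survival, division and killer functions in CD8 T and NK cells.

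The 4 libraries held 43862816 to 48950547 reads assigned to genes, so 1 read was worth 0.0197 to 0.0233 CPM (read counts scaled to library size with TMM factors). The table lists 15466 genes, each with at least 1 read in every library, and genes without a read in some library were not analysed here. Of these, 12308 were compared, those with a combined 20 reads or more in the pair and 1 CPM or more in the library with the greater level. The log2 ratio is given throughout as IL-15C naive over untreated virtual memory, with an exact 95% interval of the count ratio that covers counting error only. With 1 library per group there was no replicate check and no test across mice, and the values describe these libraries. Genes whose entire interval lay past 2-fold were called higher or lower in IL-15C naive cells, and genes were called matched when the whole interval lay within 1.5-fold either way. T cell identity was plain in all 4 libraries: Cd8a stood at 1396 CPM in untreated naive, 1168 in untreated virtual memory, 1603 in IL-15C naive and 1050 in IL-15C virtual memory cells.

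IL-15C naive cells and untreated virtual memory cells differed past 2-fold in a small part of the genes compared, in both directions. Of the 12308 genes compared, 491 were higher (3.99%) and 551 lower (4.48%), together 1042 genes or 8.47%. A larger group of 7062 genes (57.4%) was matched within 1.5-fold, and 4204 lay between these limits. Genes of DNA replication, mitosis and the interferon response, with Ly6a, were on the higher side. Genes of memory identity, NK-type receptors, inflammatory chemokine receptors and Cd44 were on the lower side. The median log2 ratio over all compared genes was 0.03. These shares and this median are the background for the counts of each list below.

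**Figure D1:**
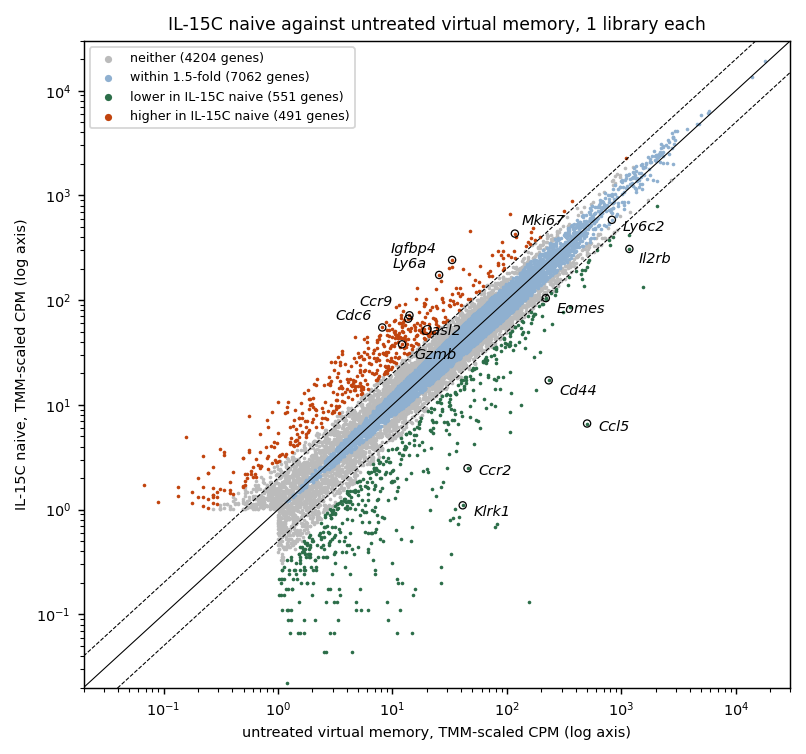
TMM-scaled CPM of each compared gene in untreated virtual memory (x axis) and IL-15C naive cells (y axis), both on log axes, with the line of equality and dashed lines at 2-fold. Points are single genes from 1 library per group; 491 lie on the higher side, 551 on the lower side and 7062 within 1.5-fold, and the circled genes are named in the text.

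The same count over the other pairs of libraries places this distance among them. Untreated naive and untreated virtual memory cells differed in 726 of 12259 genes (5.92%), and untreated naive and IL-15C naive cells in 845 of 12174 (6.94%). The naive and virtual memory cells of IL-15C mice differed in 1517 of 12206 genes (12.4%), untreated and IL-15C virtual memory cells in 2156 of 12370 (17.4%), and untreated naive and IL-15C virtual memory cells in 3067 of 12416 (24.7%). These pairs share libraries and are not independent of each other. By this count, IL-15C naive cells lay nearer to both untreated populations than to IL-15C virtual memory cells.

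The 5 genes that mark the comparison did not move as a block. Cd44, the hyaluronan receptor whose protein set the sort gate (Entrez 12505, chr2:102811141-102901669, GRCm38.p6), stood at 8.65 CPM in untreated naive, 232 in untreated virtual memory, 17.2 in IL-15C naive and 242.5 in IL-15C virtual memory cells. Both naive libraries were low and both virtual memory libraries high, as they were sorted, and the log2 ratio was -3.75 (95% counting interval -3.86 to -3.65). Ccr2, a receptor for inflammatory monocyte-attracting chemokines (Entrez 12772, chr9:124101918-124109140), followed the same order at 0.118, 45.3, 2.49 and 211 CPM in the same sequence of libraries. The IL-15C naive level was 21.1 times the untreated naive level and 5.49% of the untreated virtual memory level, a log2 ratio of -4.16 (-4.47 to -3.91). The untreated naive value rested on 6 reads, so the 21.1-fold is imprecise.

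Eomes, the T-box factor of the virtual memory programme (Entrez 13813, chr9:118478186-118486132), was intermediate, with 38.5 CPM in untreated naive, 219 in untreated virtual memory, 105 in IL-15C naive and 365 in IL-15C virtual memory cells. IL-15C naive cells stood 2.72 times above untreated naive cells and at 47.9% of the untreated virtual memory level (log2 ratio -1.06, -1.11 to -1.01), just past the 2-fold limit. The annotation places the predicted gene Gm33460 on the opposite strand of Eomes.

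Mki67, which encodes the Ki-67 protein of dividing cells (Entrez 17345, chr7:135689784-135716450), was at 8.22 CPM in untreated naive and 117 in untreated virtual memory cells, and at 432 in IL-15C naive and 1566 in IL-15C virtual memory cells. Both IL-15C libraries lay above both untreated ones, and IL-15C naive cells were 3.68 times above untreated virtual memory cells (log2 ratio 1.88, 1.84 to 1.92). In these bulk libraries a larger share of dividing cells and more transcript per cell cannot be told apart.

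Ly6a, the gene of Sca-1 (Entrez 110454, chr15:74994877-74998031), was at 20.4 CPM in untreated naive, 25.6 in untreated virtual memory, 174 in IL-15C naive and 129 in IL-15C virtual memory cells. It was ordered by treatment, the untreated subsets were close to each other, and IL-15C naive cells were the highest of the 4. The log2 ratio was 2.76 (2.68 to 2.86), a 6.81-fold difference.

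To place each gene, its order across all 4 libraries was read. A gene was called ordered by treatment when both IL-15C libraries lay on one side of both untreated libraries, and ordered by subset when both naive libraries lay on one side of both virtual memory libraries. Of the 491 higher genes, 395 (80.4%) were ordered by treatment, 93 (18.9%) by subset and 3 by neither. Of the 551 lower genes, 172 (31.2%) were ordered by treatment, 370 (67.2%) by subset and 9 by neither. Among all compared genes with a ratio above 0 the shares were 59.5% by treatment and 28.1% by subset, and among those below 0 they were 60.5% and 27.8%. The order uses the same 2 libraries as the call, so only the place of the other 2 libraries adds information. With a gap of 1.5-fold required between the pairs, 371 of the higher genes were ordered by treatment and 75 by subset, and 119 of the lower genes by treatment and 304 by subset.

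**Figure D2:**
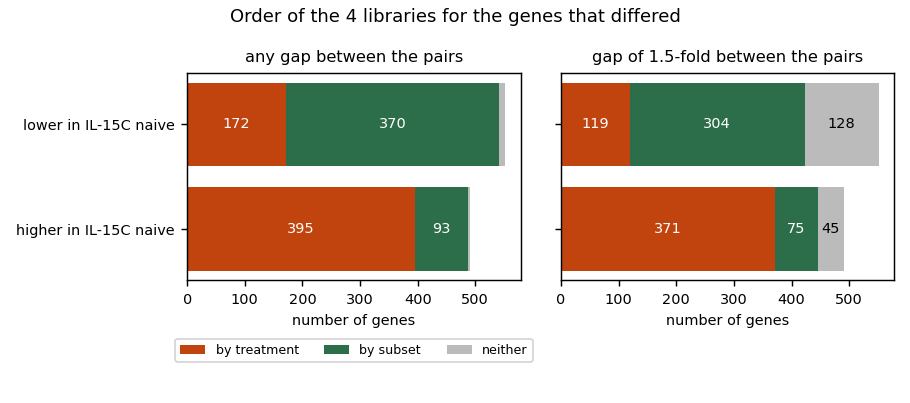
Number of genes (x axis) among the 551 lower and 491 higher genes whose 4 libraries were ordered by treatment, by subset or by neither, with any gap between the pairs (left) and with a gap of 1.5-fold (right). Most higher genes, 395, were ordered by treatment and most lower genes, 370, by subset.

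The untreated naive and IL-15C virtual memory libraries add 2 further descriptions. IL-15C virtual memory cells exceeded IL-15C naive cells in 341 of the 491 higher genes (69.5%), and IL-15C naive cells were the highest of the 4 libraries in 108 (22%). Of the 551 lower genes, 311 (56.4%) lay within 2-fold of untreated naive cells. IL-15C naive cells were below untreated naive cells in 366 of the 551 (66.4%), and were the lowest of the 4 libraries in 295 (53.5%). In 80 lower genes (14.5%) the IL-15C naive level was at least 2-fold above untreated naive, which is part of the way to the virtual memory level, and in 160 (29%) it was at least 2-fold below. In 32 of the 7062 matched genes (0.453%) both compared libraries were at least 2-fold above untreated naive. A matched gene could qualify only where untreated virtual memory was itself at least 2-fold above untreated naive. For scale, 590 genes were lower in untreated naive than in untreated virtual memory cells by the 2-fold rule with the interval, which the 32 did not have to pass.

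Virtual memory identity genes were mostly lower. Of the 17 markers listed, all compared, 1 was higher (Ly6a), 11 lower and 4 matched, with a median log2 ratio of -2.02 against 0.03 over all compared genes. The 11 lower ones were all ordered by subset. In 10 of the 11 IL-15C naive cells were above untreated naive cells, at least 2-fold in 7. Summed over the list, the level was 1147 CPM in untreated naive, 4527 in untreated virtual memory, 2056 in IL-15C naive and 6382 in IL-15C virtual memory cells.

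Within that list the genes fell at different points between the untreated subsets. Il2rb, the CD122 chain through which IL-15 signals, was at 223 CPM in untreated naive, 1175 in untreated virtual memory, 308.5 in IL-15C naive and 1704 in IL-15C virtual memory cells, a log2 ratio of -1.93 (-1.96 to -1.90). It stood 1.38 times above untreated naive, close to the naive end. Tbx21, the gene of T-bet, was at 3.58, 92.8, 18.5 and 145 CPM in the same sequence (log2 ratio -2.33, -2.44 to -2.22), and Cxcr3, a chemokine receptor under T-bet control, at 10.3, 195, 31.9 and 240.5 CPM (-2.61, -2.69 to -2.53). Both were above untreated naive cells and well below both virtual memory libraries.

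Ccl5, which encodes the chemokine RANTES stored by memory CD8 T cells (chr11:83525778-83530518), had the largest difference of the list. It was at 4.21 CPM in untreated naive, 502 in untreated virtual memory, 6.64 in IL-15C naive and 286 in IL-15C virtual memory cells, with 302 reads behind the IL-15C naive value and a log2 ratio of -6.23 (-6.41 to -6.08). IL-15C naive cells were thus near the naive end, at 1.32% of the untreated virtual memory level.

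The Ly6C genes took the opposite place. Ly6c2, which with Ly6c1 encodes the Ly6C surface protein, was at 156 CPM in untreated naive, 827 in untreated virtual memory, 585 in IL-15C naive and 1536 in IL-15C virtual memory cells (Entrez 100041546, chr15:75108161-75112066). Its log2 ratio was -0.50 (-0.52 to -0.48), matched to untreated virtual memory and 3.75 times above untreated naive. Ly6c1 was at 13.2, 71.1, 50.8 and 131 CPM (log2 ratio -0.49, -0.56 to -0.41). The 2 genes are near-identical neighbours on chromosome 15, and how the counting divided their shared reads is not stated. Klrd1, the gene of the CD94 receptor chain, and Nkg7, a granule membrane protein, were also matched (log2 ratios -0.03 and -0.16). Of the 4 matched markers, only the 2 Ly6C genes were at least 2-fold above untreated naive in both compared libraries. Klrd1 was already at 116 CPM in untreated naive, against 145 in untreated virtual memory and 142 in IL-15C naive cells. The survival gene Bcl2 lay between the limits at -0.83.

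**Figure D3:**
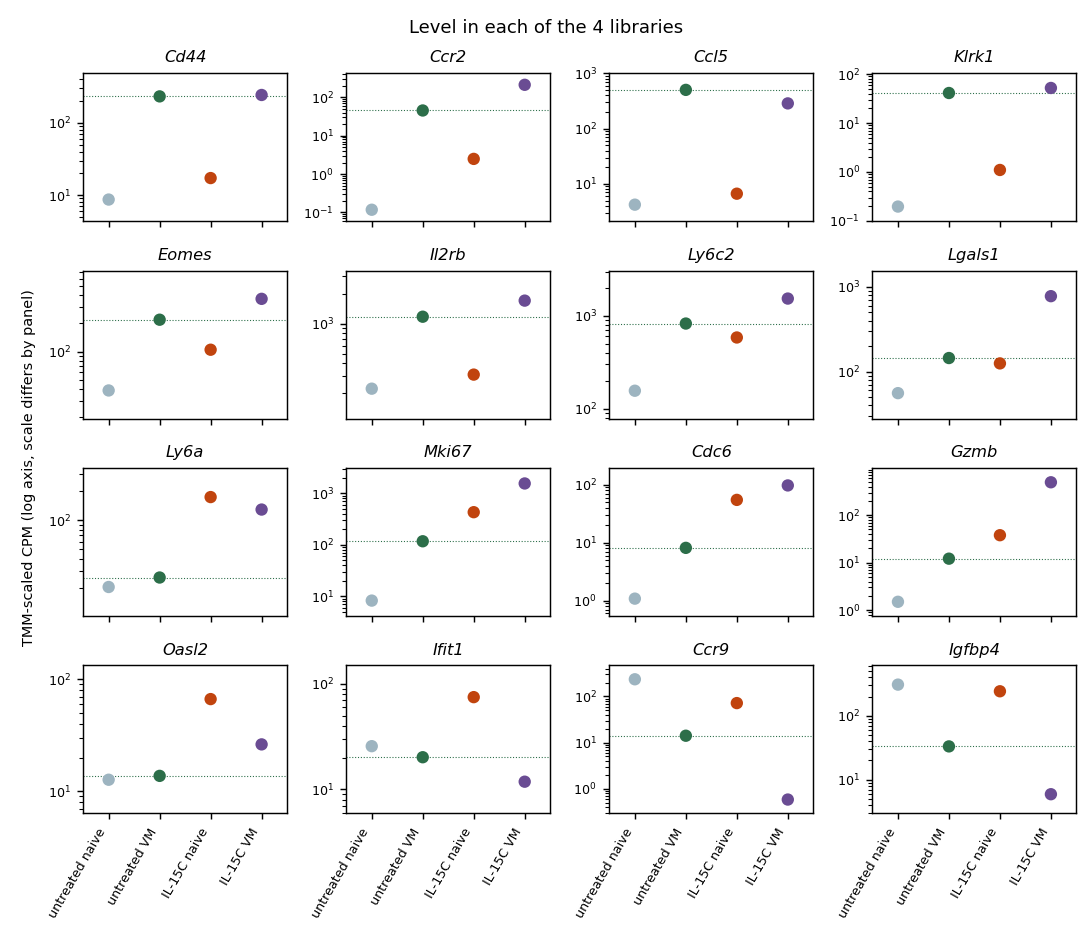
TMM-scaled CPM of 16 genes in the 4 libraries (1 point per library, log axes that differ by panel), with a dotted line at the untreated virtual memory level. Cd44 and Ccl5 stand near the naive end in IL-15C naive cells, while Klrk1 and Ccr2 lie between the untreated subsets. Klrk1 is at 5.595 times the untreated naive level and 2.675% of the untreated virtual memory level, and Ccr2 at 21.07 times and 5.492%. The untreated naive values of Klrk1 and Ccr2 rest on 10 and 6 reads. In IL-15C naive cells, Ly6c2 and Lgals1 stand near untreated virtual memory, and Ly6a, Mki67, Cdc6, Gzmb, Oasl2, Ifit1, Ccr9 and Igfbp4 above it.

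Among the genes of the sort gate, Cd44 was lower, as given above, and Itga4 was not. Itga4, the CD49d chain that was low on both sorted subsets, was at 614 CPM in untreated naive, 351 in untreated virtual memory, 290 in IL-15C naive and 50.9 in IL-15C virtual memory cells, and was matched in the comparison (log2 ratio -0.28, -0.31 to -0.24). Of the 4 gate genes 1 was lower (Cd44), 2 matched (Itga4 and Cd8a) and Cd8b1 lay between, at 0.68. The list median was 0.09.

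Receptors shared with NK cells were among the groups with the lowest ratios. Of 21 listed, 10 were in the table and compared, and of these 8 were lower, none higher and 1 matched, with a median of -3.46. With a 5 CPM filter 5 were compared and 3 were lower. Summed over the list, the level was 305 CPM in untreated virtual memory and 191 in IL-15C naive cells. The matched Klrd1 held 145 and 142 CPM of these sums. Klrk1, the gene of the activating receptor NKG2D (Entrez 27007, chr6:129610323-129623903), was at 0.197 CPM in untreated naive, 41.1 in untreated virtual memory, 1.10 in IL-15C naive and 52.1 in IL-15C virtual memory cells, a log2 ratio of -5.17 (-5.66 to -4.82). Klrc1, which encodes the inhibitory NKG2A chain that pairs with CD94, was at 0.177, 30.1, 2.51 and 202.5 CPM (-3.56, -3.87 to -3.31). Both genes followed the subset, and both were nonetheless above untreated naive cells. The adaptor genes Fcer1g and Tyrobp, which couple such receptors to kinases, had log2 ratios of -4.14 and -3.71, from 7 and 8 reads in IL-15C naive cells.

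Chemokine and trafficking receptor genes were mostly lower. Of 17 compared, 10 were lower, 1 higher and 4 matched, with a median of -2.49. The lower ones included the inflammatory receptor Cx3cr1 (log2 ratio -3.63), and the chemokines Ccl4 (-2.97) and Xcl1 (-2.55), which recruit other leukocytes, and the follicle-homing receptor Cxcr5 (-2.49). The sphingosine-1-phosphate receptor genes S1pr1 (0.06), which serves exit from lymphoid tissue, and S1pr4 (-0.03) were matched, as was Cxcr6, a receptor of effector cells (-0.45). The single higher gene was Ccr9, a gut-homing receptor of naive cells, at 235 CPM in untreated naive, 14.1 in untreated virtual memory, 71.7 in IL-15C naive and 0.583 in IL-15C virtual memory cells (2.34, 2.22 to 2.47). IL-15C naive cells kept more Ccr9 transcript than either virtual memory library and less than untreated naive cells.

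Integrins were likewise mixed. Of 13 compared, 4 were lower, 1 higher and 4 matched (median -0.56). Itgb1, the beta chain of the VLA integrins, was at 61.8, 353, 86.9 and 374 CPM in untreated naive and virtual memory cells and IL-15C naive and virtual memory cells (-2.02, -2.07 to -1.97), and Itgax, the CD11c chain, at 0.354, 21.5, 0.990 and 55.6 CPM (-4.38). Itgae, which encodes CD103 of epithelium-binding T cells, was higher at 115 against 33.0 CPM (1.80, 1.72 to 1.89), with 274 CPM in untreated naive cells. Itgal, the LFA-1 alpha chain, was lower by little more than the limit (-1.07).

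Cytotoxic genes were mixed. Of 16 compared, 5 were lower, 1 higher and 6 matched, with a median of -0.61. Gzmb, the gene of granzyme B (chr14:56258836-56262334), was the higher one, at 1.49 CPM in untreated naive, 12.1 in untreated virtual memory, 37.9 in IL-15C naive and 495 in IL-15C virtual memory cells. It was ordered by treatment, with a log2 ratio of 1.64 (1.5 to 1.79), and IL-15C naive cells held 7.65% of the IL-15C virtual memory level. Gzmm, another granzyme, followed the subset instead, at 1.49, 51.3, 4.22 and 174 CPM (-3.59, -3.82 to -3.39).

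Of the other cytotoxic genes, 4 lay between the limits and the rest were lower or matched. Prf1, which encodes the pore-forming perforin, was at 136 CPM in untreated virtual memory and 47.1 in IL-15C naive cells (-1.53), below the 90.2 CPM of untreated naive cells. Fasl, the death ligand gene, rested on 15 reads in IL-15C naive cells (-4.17, -5.20 to -3.60), and Ifng, the gene of interferon gamma, on 28 (-3.44, -4.14 to -2.97), and the annotation places Gm49751 on the same strand at Ifng. Lamp1 and Srgn, granule components, were matched (0.01 and 0.16).

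Transcription factors of effector and memory cells were lower in 11 of 17 compared, with none higher and 2 matched (median -1.65). Beside Tbx21 and Eomes, the lower ones included Zeb2, a transcriptional repressor found in terminal effector cells (4.58 CPM in untreated virtual memory and 0.374 in IL-15C naive, -3.47). Zbtb32 (-2.95), Ikzf2, the gene of Helios (-2.91), and Prdm1, the gene of Blimp-1 (-2.57), were lower too. Ikzf2 was at 14.02, 54.0, 7.15 and 11.65 CPM in untreated naive and virtual memory cells and IL-15C naive and virtual memory cells, so that untreated virtual memory stood above the other 3. Id2, an inhibitor of E proteins, and Batf, an AP-1 family factor, were matched (0.02 and -0.07).

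Naive and quiescence genes lay on both sides. Of 24 compared, 12 were matched, against 57.4% of all compared genes, 3 were higher and 2 lower, and the median of 0.01 turned to -0.03 with scaling by total counts. Tcf7, the gene of the stem-like factor TCF-1, was at 1472, 1496, 1510 and 1439 CPM in untreated naive and virtual memory cells and IL-15C naive and virtual memory cells, with a log2 ratio of 0.01. Igfbp4, an IGF-binding protein gene of naive CD8 T cells, was at 308, 33.2, 242 and 5.93 CPM (2.86, 2.79 to 2.95); IL-15C naive cells were at 0.787 of the untreated naive level. Dapl1 was also higher (1.58), and was highest of the 4 libraries in IL-15C naive cells at 267.5 CPM. Zbtb20, a zinc finger repressor, and Zfp36l2, an RNA-binding factor of quiescence, were lower and ordered by treatment. Zbtb20 was at 51.7, 33.4, 7.17 and 3.13 CPM (-2.21, -2.40 to -2.05).

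Cytokine receptors showed a rearranged set rather than a uniform shift. Of 25 compared, 12 were matched, 3 higher and 5 lower (median -0.39). The common gamma chain gene Il2rg was matched (546 CPM in untreated virtual memory and 732 in IL-15C naive, 0.42), while its partner Il2rb was lower as given above. Il15ra was at 8.10, 13.1, 5.28 and 10.5 CPM in the 4 libraries in the same sequence (-1.30, -1.53 to -1.09). The IL-18 receptor genes Il18r1 and Il18rap were lower (-2.01 and -2.58). Acvrl1, a TGF-beta family receptor (2.70), Ifngr2, the signalling chain of the interferon gamma receptor (2.29), and Tgfbr3, a co-receptor for TGF-beta (1.22), were higher, and all 3 were ordered by subset. Ifngr2 was at 40.6, 5.625, 27.7 and 0.980 CPM, with both naive libraries above both virtual memory libraries.

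Of 17 genes reported as direct STAT5 targets, 1 was higher (Gzmb), none lower, 7 matched and 9 between the limits, with a median of 0.09. Over all compared genes 8.47% were past 2-fold and 57.4% matched. Mcl1, a survival gene, was matched at 410 CPM in untreated virtual memory and 436 in IL-15C naive cells (0.09), as were Ccnd2 (-0.45) and Myc (-0.45). The feedback inhibitor gene Cish was at 9.06, 6.74, 11.3 and 34.9 CPM in the 4 libraries and lay between the limits (0.74, 0.54 to 0.96).

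T cell receptor signalling genes were matched in 14 of 17, against 57.4% of all compared genes, with none higher or lower (median -0.04). Lck, the kinase that starts receptor signalling, was at 917 CPM in untreated virtual memory and 974 in IL-15C naive cells (0.09, 0.07 to 0.11). Inhibitory receptors were matched in 7 of 13, near the share over all compared genes, and lower in 5, against 4.48% (median -0.49). The count of lower ones fell to 3 of 10 with a 5 CPM filter and to 0 of 13 with a 4-fold limit. The lower ones included Lag3 (7.77 against 1.52 CPM, -2.32), Tigit (-1.72) and Cd160 (-1.53), which restrain T cell activation, and Btla was matched (-0.19).

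Immediate early genes were lower in 4 of 19, with none higher and 9 matched (median -0.66). Fos, an AP-1 subunit gene, was at 108, 127, 40.0 and 21.8 CPM in untreated naive and virtual memory cells and IL-15C naive and virtual memory cells (-1.67, -1.75 to -1.59). It was ordered by treatment, with both IL-15C libraries low. Fosb, Nr4a2 and Nr4a3 were the other 3 lower genes, at -1.56, -2.42 and -1.24.

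Among S100 proteins, annexins and galectins, 5 of 14 were lower and 5 matched (median -0.16). S100a4, a calcium-binding protein gene of memory and migrating cells, was at 0.295, 23.9, 1.34 and 72.8 CPM in the 4 libraries (-4.11, -4.55 to -3.78), and S100a6 at 0.393, 40.85, 7.77 and 284 CPM (-2.39). Lgals1, the gene of galectin-1, was matched instead, at 55.8, 145, 125 and 775 CPM (-0.21, -0.26 to -0.16), with IL-15C naive cells 2.24 times above untreated naive. Ahnak, a large scaffold protein gene, was at 496, 1553, 134 and 867 CPM, and IL-15C naive cells were the lowest of the 4 (-3.53, -3.57 to -3.50).

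Apoptosis regulators were lower in 2 of 18, none was higher and 7 were matched (median -0.18). The 2 were the BH3-only death genes Pmaip1 (14.04 CPM in untreated virtual memory and 4.33 in IL-15C naive, -1.69) and Bbc3 (48.8 and 17.8 CPM, -1.46). Casp8, Birc3 and Mcl1 were matched.

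Proliferation genes were on the higher side. All 25 mitosis genes compared were higher, against 3.99% of all compared genes, with a median log2 ratio of 2.31. Summed over the list, the level was 56.6 CPM in untreated naive, 507 in untreated virtual memory, 2533 in IL-15C naive and 7982 in IL-15C virtual memory cells. Each of the 25 was ordered by treatment and each was higher in IL-15C virtual memory than in IL-15C naive cells. Untreated virtual memory cells thus held more mitotic transcript than untreated naive cells and less than IL-15C naive cells.

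The members of the mitotic apparatus gave the same order. Birc5, the gene of survivin in the chromosomal passenger complex, was at 1.28, 11.3, 90.4 and 257 CPM in untreated naive and virtual memory cells and IL-15C naive and virtual memory cells (2.99, 2.86 to 3.13). Nusap1, which bundles spindle microtubules, was at 1.18, 16.4, 130 and 249.6 CPM (2.99), and Kif15, a spindle motor gene, had a log2 ratio of 2.82. Nusap1 overlaps Oip5 on the opposite strand, and strand use in the counting is not stated. Ttk, the spindle checkpoint kinase gene (chr9:83834651-83872390), was at 0.354, 2.19, 17.75 and 39.9 CPM (3.00, 2.72 to 3.34).

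DNA replication genes were higher in 25 of 27, with none lower and none matched, and a median of 1.87. The summed level was 799 CPM in untreated naive, 1314 in untreated virtual memory, 3904 in IL-15C naive and 7698 in IL-15C virtual memory cells. All 25 were ordered by treatment. Cdc6, which loads the replicative helicase at origins (chr11:98907709-98923942), was at 1.08, 8.15, 54.9 and 97.6 CPM (2.75, 2.59 to 2.92). Rrm2, the subunit of ribonucleotide reductase that limits nucleotide supply, was at 3.24, 33.3, 207 and 470 CPM (2.63, 2.56 to 2.72), and Tyms and Cdc45 had ratios of 2.39 and 2.27. The 2 genes short of the limit were Mcm2 (0.62) and Cdt1 (0.90), named after their values were seen.

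Promoter windows of the compared genes were searched for 2 sequence motifs known from cell cycle genes, and for interferon-response, STAT and T-box motifs. Counts are given here for the first 2 only, in the cell cycle lists. The windows of Cdc6 and Ttk are printed to show these 2 motifs. They are RefSeq sequences of GRCm38.p6, from 250 bases before to 50 after an annotated start, in lower case with the motif in capitals, read 5′ to 3′ on the plus strand. In Cdc6 (chr11:98907901-98908200) the capitals mark an E2F match, the reverse complement of TTTCCCGC, which begins 138 bases before the start, and in Ttk (chr9:83834439-83834738) they mark a match to the cell cycle homology region (CHR), the reverse complement of TTTGAA, which begins at base 8 of the transcript.
Cdc6: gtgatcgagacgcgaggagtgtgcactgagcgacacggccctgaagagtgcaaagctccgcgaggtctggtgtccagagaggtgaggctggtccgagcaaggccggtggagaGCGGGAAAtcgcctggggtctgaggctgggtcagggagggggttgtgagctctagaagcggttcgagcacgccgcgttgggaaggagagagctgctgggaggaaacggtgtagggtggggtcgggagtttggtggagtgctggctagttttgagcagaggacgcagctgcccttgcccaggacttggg
Ttk: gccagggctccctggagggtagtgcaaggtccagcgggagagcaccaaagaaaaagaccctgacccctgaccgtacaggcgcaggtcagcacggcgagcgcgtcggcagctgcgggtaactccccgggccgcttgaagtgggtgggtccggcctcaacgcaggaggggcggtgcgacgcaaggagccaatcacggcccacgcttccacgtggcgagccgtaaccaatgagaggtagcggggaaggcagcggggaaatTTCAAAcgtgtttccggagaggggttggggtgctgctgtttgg

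An E2F match (TTTGGCGC, TTTCCCGC, TTTCGCGC or TTTGCCGC on either strand) was found in 11 of the 23 replication genes with a window (47.8%), against 2.6% of the 27025 genes of the promoter table and 5.04% of the 9136 compared genes with a window. A CHR match was found in 16 of the 21 mitosis genes with a window (76.2%), against 20.2% of the table and 14.7% of the compared genes with a window. The converse shares were 3 of 23 replication genes with a CHR match (13%) and 2 of 21 mitosis genes with an E2F match (9.52%). Among G1 and E2F family genes, 5 of 16 held an E2F match (31.2%) and 4 a CHR match (25%). A match describes letters in the window and does not show that a factor binds there. Of all compared genes 74.2% had a window, so shares over all higher or lower genes are not given.

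G1 cyclins, kinases, inhibitors and E2F factors were higher in 10 of 20, with none lower and 7 matched (median 1.24), and the 10 were all ordered by treatment. Ccne2, the gene of the S phase cyclin E2, was at 0.315 CPM in untreated naive, 3.17 in untreated virtual memory, 25.9 in IL-15C naive and 27.2 in IL-15C virtual memory cells (3.01, 2.78 to 3.29), nearly level between the IL-15C subsets. It overlaps Ints8 on the opposite strand. E2f1, an activator of S phase genes, was at 2.24, 7.28, 41.4 and 52.3 CPM (2.50), and the repressors E2f7 and E2f8 had ratios of 2.58 and 2.29. The D-type cyclin genes Ccnd2 and Ccnd3, which act before the commitment to division, were matched (-0.45 and -0.26).

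**Figure D4:**
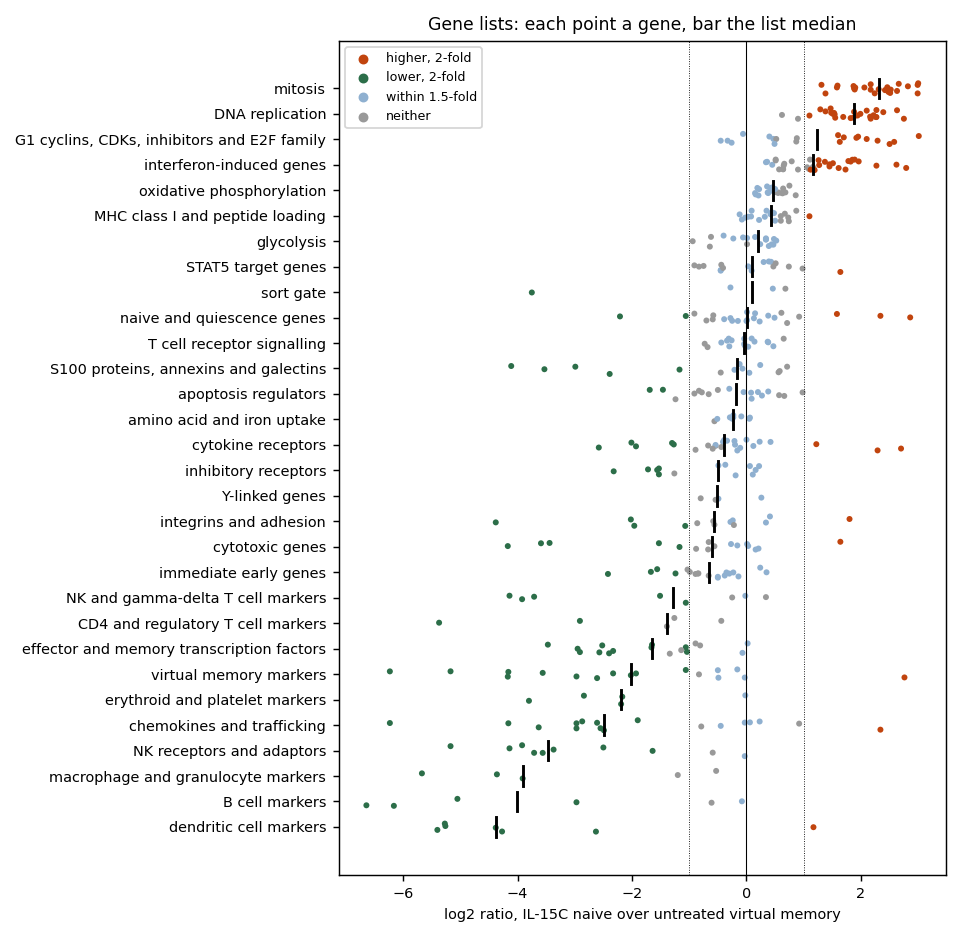
Log2 ratio of IL-15C naive over untreated virtual memory cells (x axis) for each compared gene of 30 lists (rows), with a bar at each list's median and dotted lines at 2-fold. Mitosis and DNA replication lie on the right with medians of 2.31 and 1.87, T cell receptor signalling lies at -0.04 and NK receptors at -3.46.

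Interferon-induced genes were higher too, with another order of the libraries. Of 35 compared, 19 were higher, none lower and 3 matched, with a median of 1.17. IL-15C naive cells were the highest of the 4 libraries in all 19, and in 16 of the 19 the 2 untreated libraries were within 1.5-fold of each other. The summed level was 2183 CPM in untreated naive, 1858 in untreated virtual memory, 3706 in IL-15C naive and 2046 in IL-15C virtual memory cells. IL-15C naive cells were thus above both their untreated counterparts and the virtual memory cells of the same treatment group.

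Oasl2, a 2′-5′ oligoadenylate synthetase-like antiviral gene, was at 12.7 CPM in untreated naive, 13.7 in untreated virtual memory, 66.6 in IL-15C naive and 26.2 in IL-15C virtual memory cells (2.27, 2.15 to 2.41). Ifi44 was at 1.49, 1.205, 8.58 and 0.817 CPM (2.79, 2.42 to 3.27), and Ifit1, an RNA-binding antiviral gene, at 25.7, 20.2, 74.9 and 11.8 CPM (1.89, 1.79 to 2.00). In the latter 2 genes IL-15C virtual memory cells were the lowest of the 4 libraries. Iigp1, an immunity-related GTPase gene, and Oas2 had ratios of 2.62 and 1.96. Irf9, a subunit of the factor that carries interferon signals, and the sensor gene Ddx58 were matched (0.45 and 0.34).

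The highest ratio among well-expressed genes belonged to Ube2l6, the enzyme that conjugates the interferon-induced modifier ISG15. It was at 1.04 CPM in untreated naive, 1.004 in untreated virtual memory, 10.6 in IL-15C naive and 1.77 in IL-15C virtual memory cells (3.34, 2.95 to 3.87), the pattern of the interferon-induced genes. The other 11 of the 12 highest ratios at 10 CPM or more were cell division genes or their associates, namely Stmn1, Esco2, Spc25, Pbk, Mxd3, Rad51ap1, Oip5, Ccne2, Clspn, Ttk and Neil3. Stmn1, which encodes a microtubule-destabilising protein, was at 8.65, 47.2, 461 and 746 CPM (3.29, 3.22 to 3.35), and the remaining 10 had log2 ratios from 2.99 to 3.24.

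MHC class I and peptide loading genes were matched in 13 of 20 and higher in 1 (median 0.43). Both counts were near the shares over all compared genes, 57.4% matched and 3.99% higher. Psme2, an activator subunit of the proteasome, was the higher one at 343.5 against 160 CPM (1.10, 1.06 to 1.14). H2-K1, H2-D1 and B2m, which form the class I molecules, were matched at 0.35, 0.08 and 0.50.

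No gene of the metabolic lists was past 2-fold, against 8.47% of all compared genes. Glycolysis genes were matched in 14 of 18 with none higher or lower (median 0.19), and oxidative phosphorylation genes were matched in 12 of 21, near the 57.4% of all compared genes (median 0.46). All 21 oxidative phosphorylation genes had a ratio above 0. Amino acid and iron uptake genes were matched in 8 of 9 (median -0.23). Eno1, a glycolytic enzyme gene, was at 445, 531, 671 and 1151 CPM in untreated naive and virtual memory cells and IL-15C naive and virtual memory cells (0.34), so both IL-15C libraries were above both untreated ones within a matched gene.

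Some genes were matched between IL-15C naive and untreated virtual memory cells and low in untreated naive cells. The 8 with the highest ratio over untreated naive at 10 CPM or more were Haspin, Acot7, Rgs1, Ly6c1, Ly6c2, Sdc3, Ms4a4c and Lgals1. Haspin, a mitotic histone kinase gene, was at 2.38 CPM in untreated naive, 14.6 in untreated virtual memory, 13.7 in IL-15C naive and 51.55 in IL-15C virtual memory cells (-0.10). Acot7, an acyl-CoA thioesterase gene, was at 8.98, 43.8, 47.3 and 144 CPM (0.11), and Rgs1, a brake on chemokine receptor signalling, at 4.19, 20.4, 21.9 and 10.4 CPM (0.10). In Rgs1, unlike Haspin and Acot7, IL-15C virtual memory cells were below both.

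The lowest ratios at 10 CPM or more combined memory genes with genes of other lineages. Among the 12 were Scd1, Cd163l1, Dmrta1, Dlg5, Pdgfb, Syk, Ccl5, Cd79a, Kcnj8, Lrrk1 and Heatr9. Scd1, a fatty acid desaturase gene, was at 0.334, 14.7, 0.0660 and 1.03 CPM in untreated naive and virtual memory cells and IL-15C naive and virtual memory cells, with 3 reads in IL-15C naive cells and a log2 ratio of -7.06 (-10.08 to -6.25). Cd163l1, a scavenger receptor family gene known from mouse gamma-delta T cells, was at 0.0983, 78.2, 0.682 and 68.9 CPM (-6.75, -7.40 to -6.33), and was high in both virtual memory libraries. Heatr9 (chr11:83511679-83522494), which lies beside Ccl5 on chromosome 11, was at 0.118, 11.1, 0.198 and 5.69 CPM (-5.53). Dlg5 shares exon sequence with Gm49098 on the same strand, so its value (-6.28) is uncertain.

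Genes of B cells and myeloid cells moved with the lower side. Of 6 B cell markers compared, 4 were lower, 1 was matched and none was higher (median -4.01), with summed levels of 487 CPM in untreated naive, 679 in untreated virtual memory, 563 in IL-15C naive and 694 in IL-15C virtual memory cells that were mostly Ighm (574 and 542.5 CPM in the 2 compared libraries, matched at -0.08). Cd79a, a chain of the B cell receptor complex, was at 0.177, 15.8, 0.176 and 1.12 CPM (-6.16), near 0 in both naive libraries and highest in untreated virtual memory. Cd22, a sialic acid-binding inhibitory receptor, was instead highest in IL-15C virtual memory cells at 85.0 CPM, against 34.9 in untreated virtual memory and 1.01 in IL-15C naive cells (-5.05).

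Of 7 dendritic cell markers compared, 6 were lower and 1 higher (median -4.38), with summed levels of 58.15 CPM in untreated naive, 287.5 in untreated virtual memory, 130 in IL-15C naive and 152 in IL-15C virtual memory cells. The MHC class II gene H2-Aa was at 0.806, 38.03, 0.858 and 7.19 CPM (-5.40, -5.97 to -5.01). The higher one, Bst2, is also on the interferon-induced list (1.17). Of 5 macrophage and granulocyte markers compared, 3 were lower and none higher (median -3.91), with sums of 4.46, 27.4, 3.65 and 17.3 CPM in the 4 libraries. Lyz2 was at 0.3735, 2.61, 0.132 and 0.233 CPM.

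Some genes listed as markers of other blood lineages were also lower. CD4 and regulatory T cell markers were lower in 2 of 5 (median -1.39), with sums of 17.8, 79.3, 14.7 and 64.0 CPM. The 2 were Zbtb7b and Ikzf2, and Ikzf2 alone held 54.0 CPM of the untreated virtual memory sum. Cd4 and Cd40lg were not in the table. NK and gamma-delta T cell markers were lower in 5 of 8 with 1 matched (median -1.28), with sums of 45.65, 250.3, 119 and 411 CPM, of which Eomes was the main part. Of the lower ones, Eomes, Fcer1g, Tyrobp and Klrb1c also stand in the virtual memory or NK receptor lists above, so they do not mark another lineage alone. Erythroid and platelet markers were lower in 4 of 5 (median -2.19), with sums of 2.73, 8.21, 2.22 and 2.17 CPM. In 3 of the 4 lower B cell markers, 4 of the 6 lower dendritic cell markers and all 3 lower macrophage markers, IL-15C virtual memory cells were more than 4-fold below the untreated virtual memory level, against 105 of all 551 lower genes (19.1%). Whether cells of other lineages in the untreated virtual memory library have a part in the lower genes named above was not tested. Y-linked genes were detected in all 4 libraries, 2 of 4 were matched and none was higher or lower (median -0.51), with sums of 323, 305, 239 and 131 CPM.

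Set against virtual memory cells of the same treatment, IL-15C naive cells reached different shares for different genes. Their level was 1.18% of that in IL-15C virtual memory cells for Ccr2, 2.11% for Klrk1, 2.33% for Ccl5, 7.08% for Cd44 and 7.65% for Gzmb. It was 27.6% for Mki67, 28.7% for Eomes, 38.1% for Ly6c2 and 135% for Ly6a. Of these 9 genes, Ly6a alone was above the level of IL-15C virtual memory cells.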

How the data were processed

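Gene expression was measured by poly(A) RNA-seq, with a stranded TruSeq mRNA kit and paired reads of 100 bases per the labels' protocols, in 4 libraries of sorted mouse CD8 T cells, 1 per group. The submitters' processing notes name the mm10 build and, without their roles, HISAT2 2.1.0, StringTie 2.1.3b, Trimmomatic 0.38, FastQC 0.11.7, R 4.2.2 and SAMtools 1.9 beside edgeR. The annotation version and whether counting used strand are not given in the sources used here.

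The authors deposited whole-number read counts per gene without normalization, per the file headers. Per the file headers the authors also deposited FPKM, which adjusts for transcript length and depth and served for 1 alternative. The TPM values that the authors deposited were copied to a table and enter no result. The authors' log2 column is log2(1 + TMM-scaled CPM), since a recomputation from the counts differed by at most 5.1e-09. Another 10 columns with values per sample were left out. The authors' deposited comparisons do not include the pair described here. Columns headed ctrl were taken as the PBS groups, which the labels call wild type.

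TMM factors from edgeR 4.0.16 in R 4.3.3 were 1.04 and 1.02 in naive and virtual memory cells of untreated mice, and 0.996 and 0.946 in those of IL-15C mice. Log2 ratios used a prior count of 2. The 95% intervals follow Clopper and Pearson for a count ratio, without the prior, and cover counting error only, as no molecular identifiers mark the reads. Their median width was 0.240 log2 units. No p-value was computed. The scripts were tested on simulated data. Coordinates come from RefSeq GRCm38.p6 by Entrez ID (15425 matched, 41 did not), exon overlaps from GENCODE, and promoter windows from the RefSeq table. A promoter gene counted once if any of its windows held a motif.

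The 31 gene lists hold 470 genes, of which 425 are in the table and 36 stand in 2 or more lists. The comparison, the lists and the rules were chosen with earlier results of these data known. Genes were named as the 12 highest and 12 lowest ratios at 10 CPM or more without predicted, segment, ribosomal, histone and mitochondrial genes, up to 4 higher, 4 lower and 3 matched members per list, the marker and gate genes, and the 8 matched genes farthest above untreated naive. Bcl2, Ccl4, Cdt1, Cish, Cxcr3, Cxcr5, Cxcr6, Ifit1, Klrc1, Mcm2, Tbx21, Xcl1 and those in the closing section were named after their values were seen. A few genes that the rule selects are not reported here. Alternatives tried were DESeq2 1.42.0 size factors, total counts, TMM without cell cycle genes, other filters, prior counts and limits, and FPKM ratios.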

Additional observations from a re-analysis of the deposited data

How the results depend on the processing

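Of the 11 alternatives, 5 (other scalings, another prior count and FPKM) gave a value for each named gene. Under other scalings (DESeq2 size factors, total counts, TMM without cell cycle genes) 467 to 495 genes were higher and 549 to 587 lower, and the median over all genes lay between -0.01 and 0.03, so that it changed sign with total counts. With a 4-fold limit 134 genes were higher (123 ordered by treatment, 11 by subset) and 178 lower (23 by treatment, 153 by subset), by the stricter limit. With a 5 CPM filter 400 were higher and 349 lower, with 92 of the lower by treatment, since fewer genes were compared, and the higher share of calls turned from 47.1% to 53.4%. Without the interval there were 155 genes higher, ordered by subset, and 321 genes lower, ordered by treatment. With deposited FPKM, also without the interval, 859 genes were lower, with 381 genes lower, ordered by treatment, and 175 genes higher, ordered by subset, and the cause was not tested. The share of higher genes ordered by treatment ran from 74.9% to 91.8% over the settings, and that of lower genes by subset from 52.6% to 86%. For the 170 named genes, 793 of 850 alternative values lay within the counting interval and 0 changed sign. No paired analysis was possible because each group had 1 library, and no replicate could be left out. Depth limits genes of few reads, such as Scd1 with 3 reads in IL-15C naive cells.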

Other observations

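Genes outside the lists show the same 2 orders. Ttc28 was at 77.2 CPM in untreated naive, 84.2 in untreated virtual memory, 18.3 in IL-15C naive and 15.6 in IL-15C virtual memory cells (log2 ratio -2.20, -2.31 to -2.09), and both IL-15C libraries were low. Trio, a guanine nucleotide exchange factor gene, was at 51.4, 77.0, 17.7 and 27.6 CPM (-2.12), and the circadian repressor gene Per2 at 10.6, 12.25, 3.34 and 2.50 CPM (-1.86). Gpr34, a lysophosphatidylserine receptor gene, was ordered by subset on the higher side, at 16.75, 3.59, 14.6 and 0.420 CPM (2.01, 1.77 to 2.28). These genes were chosen after their values were seen.

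Dpm1, a subunit gene of the dolichol-phosphate mannose synthase, was ordered by treatment, but not with the 1.5-fold gap between the pairs. It was at 16.8 CPM in untreated naive, 4.13 in untreated virtual memory, 20.85 in IL-15C naive and 27.9 in IL-15C virtual memory cells (2.32, 2.11 to 2.57), so that untreated virtual memory cells stood below the other 3 libraries.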
